A study of Mus musculus with 4 samples.

Results

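Peaks at 10 genes of developing T cells were examined in mouse medullary thymic epithelial cells, as a check on signal carried over from thymocytes. The genes were Rag1, Rag2, Ptcra, Cd3d, Cd3e, Cd3g, Cd4, Cd8a, Themis and Lck, chosen by name. They are 10 of 21627 protein-coding genes, and a peak belonged to a gene when its midpoint lay inside the gene's RefSeq interval or within 5 kb of it. The data are CUT&RUN peak lists, made from short fragments that a nuclease tethered to an antibody cuts out of chromatin. The 4 libraries came from mTEChi and mTEClo cells sorted from thymus, 2 libraries of each. All were labelled Trp53-WT, that is, wild type for the gene of p53, and came from mice aged 4 to 5 weeks. Each condition used 500000 cells, and the labels name no pooling of animals. Sample titles name an antibody against p53 while the protocol names an antibody against BAF155, which belongs to the BAF chromatin remodeller. The labels do not settle which protein the peaks mark.

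Thymocytes, the developing T cells, vastly outnumber epithelial cells in the thymus. Rag1 and Rag2 encode the recombinase that cuts T cell receptor genes, and Ptcra encodes the chain that pairs with a new beta chain in the pre-T cell receptor. Cd3d, Cd3e and Cd3g encode the signalling chains of the receptor, Cd4 and Cd8a its coreceptors, Lck the kinase bound to those coreceptors, and Themis an adaptor needed for positive selection. Medullary epithelial cells show self-antigens to these cells, and mTEChi cells are, in common usage, the more mature state with much surface MHC class II. Per the protocol, thymocytes were released before digestion of the stroma, and EpCAM+ cells were enriched with magnetic beads before sorting. Libraries of thymocytes or of a control antibody were not analysed here. A peak reports antibody-directed cutting and not RNA, and in a pool of cells a larger share of cells with signal cannot be told apart from more signal per cell.

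No start of a thymocyte gene had a summit within 1 kb in 2 or more libraries. The 3 regions in these windows that held a peak in all 4 libraries lay at the starts of neighbouring genes, Iftap, Cnpy3 and Ube4a. The promoter sequences of these neighbours are shown first because that signal lay at their starts. All 4 summits fell within the printed sequence at Iftap and at Cnpy3, and 3 of 4 at Ube4a. Promoter sequences of 4 thymocyte genes follow for contrast, the Rag pair and the only members with a summit within 1 kb of a listed start. Each runs 5′ to 3′ from 250 bases before the start to 50 after it, from RefSeq (GRCm38.p6), with CG dinucleotides in capitals.
Iftap (chr2:101628982-101629281, minus strand): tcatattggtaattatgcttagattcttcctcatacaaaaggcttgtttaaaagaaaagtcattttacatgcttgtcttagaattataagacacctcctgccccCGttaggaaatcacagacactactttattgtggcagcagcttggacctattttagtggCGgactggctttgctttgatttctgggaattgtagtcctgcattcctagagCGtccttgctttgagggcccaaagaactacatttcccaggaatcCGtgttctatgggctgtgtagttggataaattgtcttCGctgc
Cnpy3 (chr17:46752165-46752464, minus strand): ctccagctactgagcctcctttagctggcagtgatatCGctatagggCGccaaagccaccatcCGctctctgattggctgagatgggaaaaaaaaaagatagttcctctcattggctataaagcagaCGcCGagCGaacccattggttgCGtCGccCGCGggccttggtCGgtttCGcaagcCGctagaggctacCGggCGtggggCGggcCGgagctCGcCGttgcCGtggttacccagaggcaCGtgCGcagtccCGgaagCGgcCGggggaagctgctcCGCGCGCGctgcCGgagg
Ube4a (chr9:44965551-44965850, minus strand): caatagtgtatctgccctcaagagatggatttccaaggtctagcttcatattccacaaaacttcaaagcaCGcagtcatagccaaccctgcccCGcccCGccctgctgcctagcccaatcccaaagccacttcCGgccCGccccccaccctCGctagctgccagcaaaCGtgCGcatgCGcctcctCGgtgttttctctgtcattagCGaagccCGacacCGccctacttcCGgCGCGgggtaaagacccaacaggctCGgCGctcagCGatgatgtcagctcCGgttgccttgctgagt
Rag1 (chr2:101649483-101649782, minus strand): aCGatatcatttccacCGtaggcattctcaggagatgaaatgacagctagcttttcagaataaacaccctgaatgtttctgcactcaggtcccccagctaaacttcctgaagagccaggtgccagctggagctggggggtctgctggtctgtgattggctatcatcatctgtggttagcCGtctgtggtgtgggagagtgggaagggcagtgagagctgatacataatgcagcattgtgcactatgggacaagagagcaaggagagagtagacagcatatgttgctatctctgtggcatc
Rag2 (chr2:101624462-101624761, plus strand): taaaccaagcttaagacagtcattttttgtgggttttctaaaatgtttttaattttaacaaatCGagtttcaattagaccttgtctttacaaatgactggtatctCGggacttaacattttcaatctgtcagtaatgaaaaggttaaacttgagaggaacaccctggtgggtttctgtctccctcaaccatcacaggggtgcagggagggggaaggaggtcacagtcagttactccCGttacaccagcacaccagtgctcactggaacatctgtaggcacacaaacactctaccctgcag
Ptcra (chr17:46763663-46763962, minus strand): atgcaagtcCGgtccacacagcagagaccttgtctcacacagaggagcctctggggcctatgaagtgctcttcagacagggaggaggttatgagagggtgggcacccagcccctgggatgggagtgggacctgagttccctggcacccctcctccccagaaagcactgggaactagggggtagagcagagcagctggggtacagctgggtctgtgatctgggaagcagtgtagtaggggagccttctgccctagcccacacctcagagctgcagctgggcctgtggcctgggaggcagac
Cd8a (chr6:71373177-71373476, plus strand): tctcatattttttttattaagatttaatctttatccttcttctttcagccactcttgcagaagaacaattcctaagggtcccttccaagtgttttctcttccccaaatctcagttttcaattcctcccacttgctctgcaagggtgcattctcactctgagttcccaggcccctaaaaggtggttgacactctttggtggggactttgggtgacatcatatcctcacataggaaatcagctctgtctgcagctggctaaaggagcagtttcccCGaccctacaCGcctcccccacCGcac

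The lists held 73510 and 85308 peaks in mTEChi replicates 1 and 2, and 89809 and 69359 peaks in mTEClo replicates 1 and 2. Sequencing depth is unknown, since peak lists hold no reads. Peaks were ranked within their own list by the authors' score, with ties at their mean rank, and a rank is given as a percent of the list, where a low percent is a high score. In mTEChi libraries, 6 and 8 of the 10 thymocyte genes had a peak, against 9 and 10 in mTEClo libraries. By the same rule, 69.3% and 73.0% of all protein-coding genes were called in the mTEChi libraries and 75.5% and 68.8% in the mTEClo libraries. Rag2, Ptcra, Cd3g, Themis and Lck, 5 of 10, were called in all 4 libraries, beside 51.9% of all genes. That share was near the background and is no result about these genes. Both mTEChi libraries called 6 genes (61.2% of all genes) and both mTEClo libraries called 9 (63.1%).

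A longer window holds more peaks by its length alone. With windows of up to 20 kb, 2 of 4 thymocyte genes were called in all 4 libraries (Rag2 and Ptcra, not Cd3d or Cd8a), beside 26.5% of all genes in that class. Between 20 and 50 kb they were 2 of 5 (Cd3g and Lck, not Rag1, Cd3e or Cd4), beside 54% of all genes. Over 50 kb the class held only Themis, which was called, as were 81.9% of all genes in it. The mean density over libraries ran from 0.144 peaks per 10 kb of window at Themis to 1.25 at Ptcra. Its median was 0.486 over the 10 genes and 0.463 over all protein-coding genes.

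**Figure D1:**
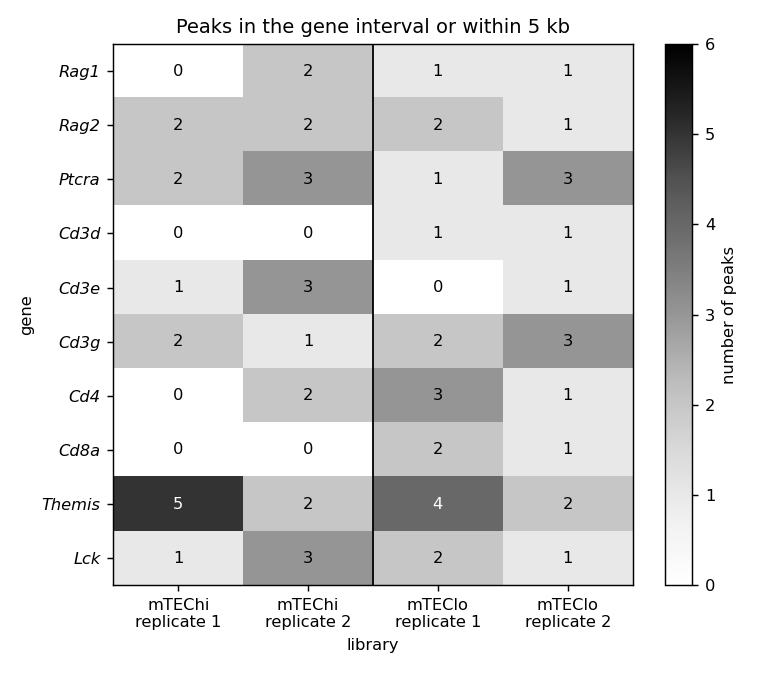
Number of peaks in each gene's interval or within 5 kb, for every library (columns, mTEChi left of mTEClo) and gene (rows); darker cells hold more peaks. Cd3d and Cd8a had 0 peaks in both mTEChi libraries, and Themis, with the longest window, had 5 and 2 peaks in mTEChi and 4 and 2 in mTEClo libraries.

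The windows held 62 distinct peaks. Of these, 13 and 17 were in mTEChi libraries and 18 and 14 in mTEClo libraries. As a share of the list this was 1.77 and 1.99 per 10000 peaks in mTEChi and 2.00 and 2.02 in mTEClo. The means were 1.88 ± 0.159 and 2.01 ± 0.0101 (SD, n = 2 each), and the difference of -0.131 was below the SD of the mTEChi libraries. Its direction turned to 0.134 with 10 kb windows and to 2 with the 10000 highest peaks of each list, and it was -0.0186 without mTEChi replicate 1. Peaks that share at least 1 bp were merged into 47 regions, and 7 of them (14.9%) had peaks of 2 or more libraries. Over the whole lists that share was 14.6%, near that of these windows. Regions with a peak in all 4 libraries were 3 of the 47 (6.38%), those at Iftap, Cnpy3 and Ube4a, beside 1.99% of all merged regions. Of the 7 regions, 4 lay within 1 kb of the start of another gene and 0 within 1 kb of a thymocyte gene's start. Regions of both mTEChi libraries alone numbered 2 (1.83% of all merged regions were of that kind), and regions of both mTEClo libraries alone numbered 0 (2.75%). The 22 peaks in recurring regions had a median rank of 17.5% of their list. The 40 peaks seen in a single library had a median rank of 61.2%.

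At the recombinase genes, the recurring summit was that of Iftap, listed in RefSeq also under the name NWC, whose start lies inside the interval of Rag2. Rag2 (chromosome 2, 101624712 to 101632528) held summits at 101629045 and 101629038 in mTEChi replicates 1 and 2 and at 101629020 and 101629036 in mTEClo replicates 1 and 2. All 4 stood 5 to 14 bp from the Iftap start and 4308 to 4333 bp downstream of the Rag2 start. They ranked at 2.46% and 19.8% of the mTEChi lists and 12.8% and 0.895% of the mTEClo lists. These positions fall within the Iftap promoter printed above. The other Rag2 peaks were single: 101631642 in mTEChi replicate 1, 101634853 in mTEChi replicate 2, which the Rag1 window shares, and 101621996 in mTEClo replicate 1. The last stood 950 bp from a second listed Iftap start and 2716 bp upstream of Rag2.

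Rag1 (chromosome 2, 101638252 to 101649532) had 0 and 2 peaks in mTEChi and 1 and 1 in mTEClo libraries, none shared between libraries. Its nearest summits to the start, at 101649532 on the minus strand, were 11086 and 7899 bp away in mTEChi and 5392 and 5905 bp away in mTEClo. The mTEClo pair lay inside the gene, 513 bp apart, and ranked low, at 69.7% and 79.5% of their lists. The best mTEChi peak of Rag1 ranked at 48%, in replicate 2.

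Ptcra (chromosome 17, 46755663 to 46763712) showed the same arrangement, with the recurring summit at a neighbour. Summits at 46752346 and 46752298 in mTEChi replicates 1 and 2 and at 46752311 and 46752342 in mTEClo replicates 1 and 2 stood 84 to 132 bp from the start of Cnpy3, which encodes a chaperone of Toll-like receptors. Their ranks were 1.9% and 8.59% in mTEChi and 4.04% and 4.21% in mTEClo, high in every list. A second Cnpy3 region, 291 to 621 bp from its start, held 3 summits from both mTEChi libraries and none from mTEClo. At the Ptcra start itself, a single summit lay 182 bp upstream, at 46763894 in mTEClo replicate 2, with a rank of 35.1%. The nearest summits of the other libraries were 11366 and 11414 bp downstream in mTEChi and 6025 bp upstream in mTEClo replicate 1.

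The CD3 genes lie together on chromosome 9, and Cd3g shares 1 peak with the window of Cd3d. Cd3g (44969572 to 44980431) was called in all 4 libraries through the start of Ube4a, which encodes a ubiquitin chain elongation factor. Summits there were at 44965535 and 44965594 in mTEChi and at 44965614 and 44965613 in mTEClo, 6 to 65 bp from the Ube4a start and 14817 to 14896 bp from that of Cd3g. Ranks were 15.2% and 1.23% in mTEChi, against 69.7% and 35.1% in mTEClo, so the mTEClo summits were of middling or low score. A further region, 1346 to 1359 bp from Ube4a, held a summit of mTEChi replicate 1 (44966959, rank 7.38%) and of mTEClo replicates 1 and 2 (44966956 and 44966946, ranks 55.4% and 64.6%). It was the only recurring region seen in 3 libraries.

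Cd3d (44981769 to 44987052) had 0 and 0 peaks in mTEChi and 1 and 1 in mTEClo libraries. The mTEClo peaks, at 44986464 and 44985274, stood 1190 bp apart inside the gene, with ranks of 17.1% and 64.6%, and did not overlap. Cd3e (44998735 to 45009663) had 1 and 3 peaks in mTEChi and 0 and 1 in mTEClo libraries. Its recurring region was the only 1 of the 7 whose nearest gene start was that of a thymocyte gene. Summits of mTEChi replicates 1 and 2, at 45014509 and 45014311, stood 4898 and 4700 bp upstream of the Cd3e start, 198 bp apart, with ranks of 38.9% and 75.6%. The highest Cd3e peak, in mTEChi replicate 2 at 44996818 (rank 2.01%), lay beyond the far end of the gene and had no partner in another library.

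The coreceptor genes had no peak shared between libraries. Cd4 (chromosome 6, 124864693 to 124888247) had 0 and 2 peaks in mTEChi and 3 and 1 in mTEClo libraries, each at its own position. For Cd4 no start was listed, so both ends of its interval were used. A summit of mTEChi replicate 2 stood 483 bp outside the upper end and 1 of mTEClo replicate 1 stood 241 bp outside the lower end, with ranks of 75.6% and 91.9%. The best Cd4 peak had a rank of 14.6%, in mTEClo replicate 1, and lay 4848 bp outside the interval, inside that of Gpr162. Cd8a (chromosome 6, 71373427 to 71379171) had 0 and 0 peaks in mTEChi and 2 and 1 in mTEClo libraries. A summit of mTEClo replicate 1 lay 388 bp downstream of the start (rank 82.6%), and that of mTEClo replicate 2 lay 2549 bp downstream (rank 35.1%). The nearest mTEChi summits were 27580 and 22028 bp from the Cd8a start.

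Lck (chromosome 4, 129548344 to 129573641) has a pair of listed starts, the inner of which corresponds to the promoter known to act in thymocytes. It had 1 and 3 peaks in mTEChi and 2 and 1 in mTEClo libraries. Around the inner start, at 129558372, the nearest summits were 5752 and 1369 bp away in mTEChi and 6668 and 2480 bp away in mTEClo. Around the outer start, at 129573641, they were 9517 and 3742 bp away in mTEChi and 3655 and 11734 bp away in mTEClo. Its recurring region held summits of mTEChi replicate 2 (129577383, rank 88.6%) and mTEClo replicate 1 (129577296, rank 26.9%), nearer to the start of Fam167b, at 1197 and 1284 bp, than to that of Lck.

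Themis (chromosome 10, 28668360 to 28883820) had 5 and 2 peaks in mTEChi and 4 and 2 in mTEClo libraries. No Themis position recurred, and its density of 0.144 peaks per 10 kb compares with a median of 0.398 over genes with windows over 50 kb. The mTEChi summits nearest its starts lay 1372 and 3376 bp downstream, with ranks of 91.1% and 57.8%. In mTEClo libraries the nearest summits were 35719 and 32948 bp from the first start, outside the window.

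**Figure D2:**
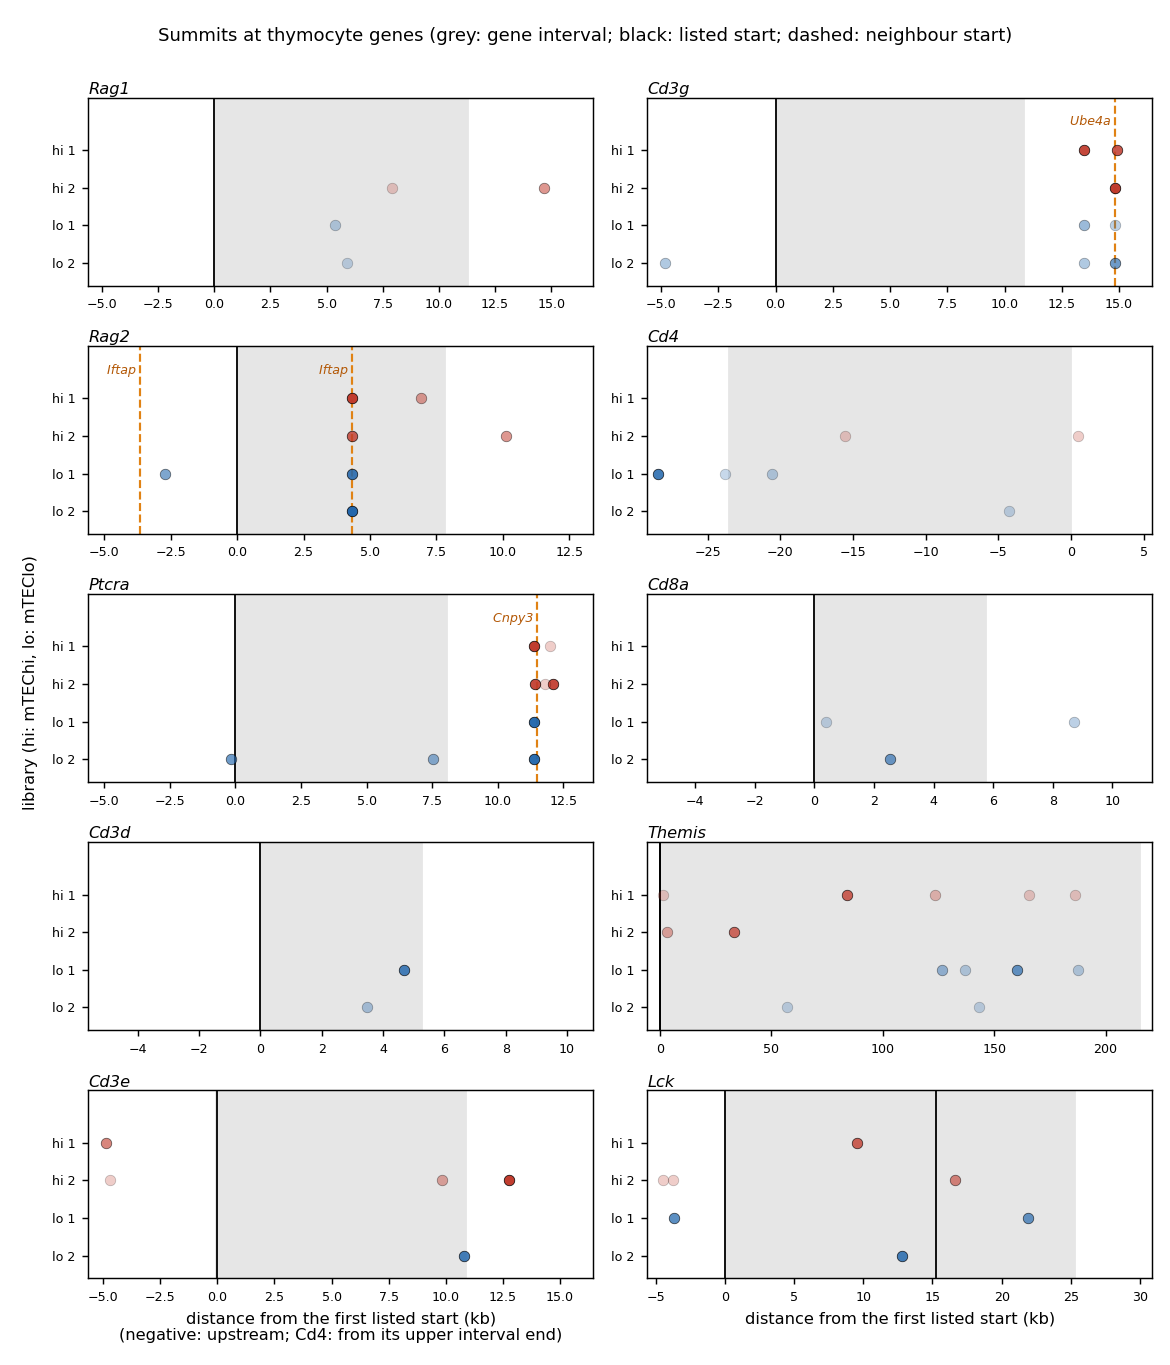
Summits in the window of each gene, by distance in kb from the first listed start (x axis, read along the gene) and by library (y axis, mTEChi above mTEClo); stronger colour marks a higher rank in the list. The columns of 4 aligned points stand at the starts of Iftap, Cnpy3 and Ube4a (dashed), and no such column stands at a thymocyte gene's start (black line).

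**Figure D3:**
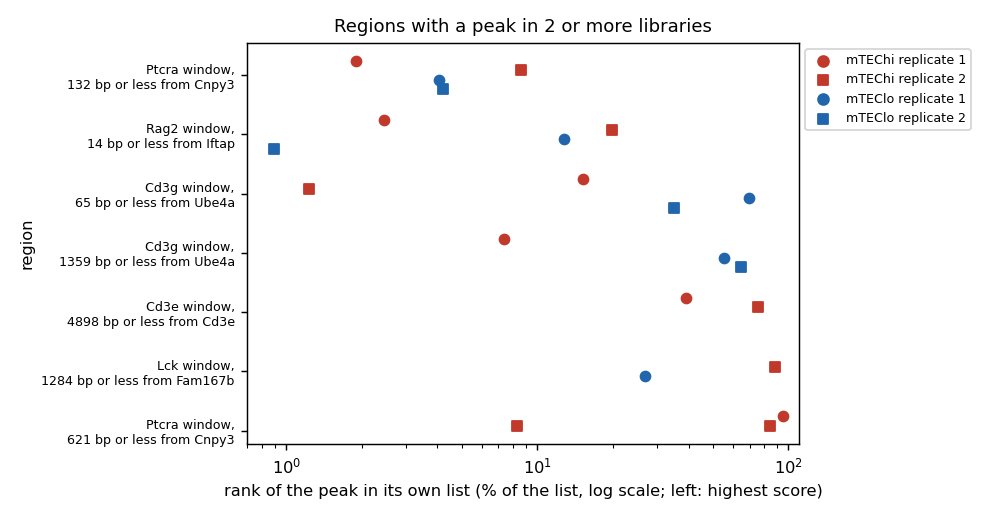
Rank of each peak within its own list, as a percent of the list on a log axis, for the 7 regions with a peak in 2 or more libraries; points left are high scores, red mTEChi and blue mTEClo. In the regions seen in all 4 libraries at Cnpy3 and Iftap, every peak ranked at 19.8% or better. At Ube4a, also seen in all 4, ranks ran to 69.7% and overlapped those of the region upstream of Cd3e, at 38.9% and 75.6%.

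Within 1 kb of a start, 0 of 10 thymocyte genes had summits of 2 or more libraries. Over the 17273 protein-coding genes with a listed start that share was 43.7%. In 1 or more libraries, Ptcra and Cd8a had such a summit, 2 of the 9 with a listed start, beside 62.3% of all genes, and 17.6% of all genes had it in all 4. The count of 0 held with a distance of 2 kb. The other settings, 250 bp among them, used fewer peaks, fewer libraries or a shorter distance and could not raise it.

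The promoters of the thymocyte genes share a low CG content, which the choice of genes did not use. Promoters of vertebrate genes used in many tissues are commonly rich in CG dinucleotides, while those of many tissue-restricted genes are poor in them. The 11 listed starts of 9 genes (Cd4 had none listed) held 1 to 8 CG dinucleotides in 300 bases, with a median of 3, against a median of 13 over 21044 promoters. Ptcra and Cd3d had 1 each and Cd3e had 8. Of all promoters with at most 9 CG dinucleotides, 14.5% had a summit within 1 kb in 2 or more libraries, and of those with 10 or more, 62%. With 0 to 4 CG dinucleotides, 0 of 8 thymocyte starts had such a summit, beside 8.14% of all promoters in that class, and with 5 to 9, 0 of 3, beside 26.3%. Both Themis starts, at 28668360 and 28668395, are among the 8. They share nearly all of their 1 kb zones and are not separate observations. At like CG content the count of 0 therefore stands beside a background far below 43.7%.

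**Figure D4:**
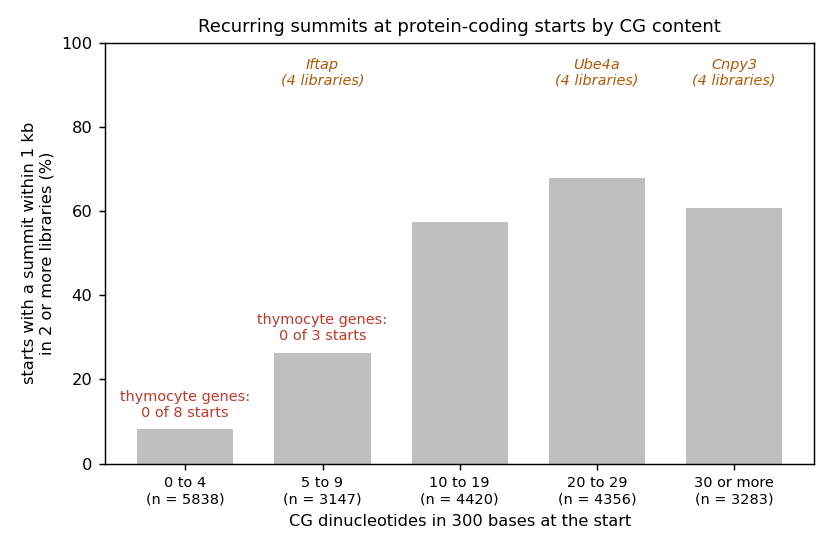
Share of protein-coding starts with a summit within 1 kb in 2 or more libraries (y axis, percent) by the number of CG dinucleotides in the 300 bases of the promoter (x axis). The thymocyte starts fell in the 2 lowest classes, with 0 of 8 and 0 of 3, where the share of all starts was 8.14% and 26.3%; it was 67.8% with 20 to 29.

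The 3 neighbours differed from each other in CG content. The Cnpy3 promoter held 30 CG dinucleotides and that of Ube4a 20. Iftap held 5, as few as the inner Lck start, and yet had a summit in all 4 libraries. The Iftap sequence was searched for its longest stretch that recurs on the other strand with at most 1 mismatch, a choice made after seeing the data and a description only. The stretch was ACTACANTTCCCAG, at bases 185 to 198 on the other strand and 239 to 252 as printed. Both copies are given with flanking bases and the motif in capitals.
Iftap, other strand: tgatttCTGGGAATTGTAGTcctgca
Iftap, as printed: caaagaACTACATTTCCCAGgaatcc

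Searched on both strands, that motif was in 0 of the 11 promoters of thymocyte genes and in 0.737% of all promoters. Of 29 promoters with the motif and at most 9 CG dinucleotides, 69% had a summit in 2 or more libraries, against 14.3% of those with as few CG and no motif. The 29 include the Iftap promoter itself, from which the motif was taken because of its summits, so the share is a description only. The GC box GGGCGG, on both strands, was in 2 of the 11 thymocyte starts (Cd3g and the inner Lck start) and in 46.7% of all promoters. The p53 consensus decamer, searched singly and not as a full site, was in 1 of the 11, the inner Lck start, beside 7.37% of all promoters. It was also in the Iftap promoter, where it did not overlap the other motif. Of 807 promoters with the decamer and at most 9 CG dinucleotides, 17.6% had a summit in 2 or more libraries. The share was 14.5% over all promoters with as few CG.

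Between the states, 0 thymocyte genes were mTEChi-only, that is, with peaks in each mTEChi library and in no mTEClo library (1.67% of all genes). Cd3d and Cd8a were mTEClo-only (2.14% of all genes). In neither gene did the mTEClo peaks overlap, so the genes were shared between those libraries but the sites were not. With 2 libraries against 2 the smallest p of a two-sided exact permutation test is 0.333, so no gene could pass 0.05. Peaks per 10000 of the list were lower in mTEChi without overlap at Cd3d (0 against 0.128 ± 0.0232) and Cd8a (0 against 0.183 ± 0.0555; SD, n = 2 each). They were higher in mTEChi at Rag2 (0.253 ± 0.0266 against 0.183 ± 0.0555), each with p = 0.333 by the exact permutation test. In number, Rag2 had 2 and 2 peaks in mTEChi and 2 and 1 in mTEClo. Its mTEClo replicate 1 value was lower only as a share of a longer list. Among all genes, 13.6% were without overlap and higher in mTEChi and 15.4% without overlap and higher in mTEClo. The other 7 genes overlapped between the states. Neither gene was mTEClo-only with peaks above the median score or with the 10000 highest peaks of each list, and with 10 kb windows only Cd8a was. Without mTEChi replicate 2, Rag1 and Cd4 joined the mTEClo-only genes, giving 4, and without mTEClo replicate 2, Cd3e became mTEChi-only. Leaving out a library can only add such genes, since fewer libraries then have to meet the rule.

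The call of a gene in all 4 libraries rested on the neighbours in 3 of 5 cases. Leaving out peaks within 1 kb of another gene's start, a choice made after seeing the data, left Themis and Lck called in all 4 libraries, 2 of 10, beside 43.9% of all genes under the same rule. Of all genes called in all 4 libraries, 15.4% lost that call. Of the 41 regions left in the thymocyte windows, 3 recurred, beside 12.5% of all regions left. For the regions, peaks near starts of all genes but the 10 were left out of the whole lists. The 43.9% instead left out, for each gene, peaks at starts of other genes. Cd3d and Cd8a remained mTEClo-only (2.54% of all genes under this rule), and Rag2 became mTEChi-only (2.18%). The Rag2 peaks left, at 101631642 in mTEChi replicate 1 and 101634853 in mTEChi replicate 2, did not overlap. Its mTEClo replicate 1 peak at 101621996 was left out as 950 bp from an Iftap start. At the limit of the window, the outermost peaks counted lay 4848 bp (Cd4) and 4846 bp (Cd3e) from the interval, and the nearest left out lay 5387 bp from Cd3e.

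Many but not all genes listed as thymic epithelial markers had recurring summits at their starts. Of 16 such genes, 13 were called in all 4 libraries (81.3%), and 10 of 13 with a listed start had a summit within 1 kb in 2 or more libraries. Foxn1, Trp63 and Psmb11 had such a summit in 1 library and Pax1 in 0, with interval ends used where no start was listed. With at most 9 CG dinucleotides, 0 of 11 thymocyte starts had such a summit, against 7 of 9 epithelial starts, among them H2-Aa, Krt5, Krt8 and Krt14. H2-Aa encodes an MHC class II chain and the others keratins. The contrast is not matched for CG content within that class. The median was 3 over the thymocyte starts and 8 over all 13 epithelial starts, those with more CG included. Over all promoters the share rose from 8.14% with 0 to 4 CG dinucleotides to 26.3% with 5 to 9. The 11 include both Themis starts, which are not separate observations. Of 13 further genes of T cell receptor signalling, 9 were called in all 4 libraries, and 1 of 8 with a listed start had the summit, at 0 of 9 starts with at most 9 CG dinucleotides and 1 of 2 with more. Thymocyte transcription factors were called in all 4 libraries in 12 of 12 cases, in windows with a median of 100.9 kb, and 4 of 9 with a listed start had the summit. Of their starts with at most 9 CG dinucleotides, 2 of 11 had it, those of Bcl11b and Zbtb7b, and of starts with more, 2 of 10. For markers of B cells, myeloid cells, fibroblasts with endothelium and erythroid cells, the numbers called in all 4 libraries were 3 of 6, 1 of 6, 4 of 6 and 1 of 5, and none of their listed starts had a summit in 2 or more libraries. With interval ends used where no start was listed, the count was 2 of 13 for receptor signalling, 5 of 12 for transcription factors and 12 of 16 for epithelium. For those 4 further lists, in the same order, it was 0 of 6, 1 of 6, 0 of 6 and 1 of 5, beside 42.9% of all genes. An interval end need not be a start. The part of thymocyte chromatin in the peaks seen in single libraries was not tested.

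**Figure D5:**
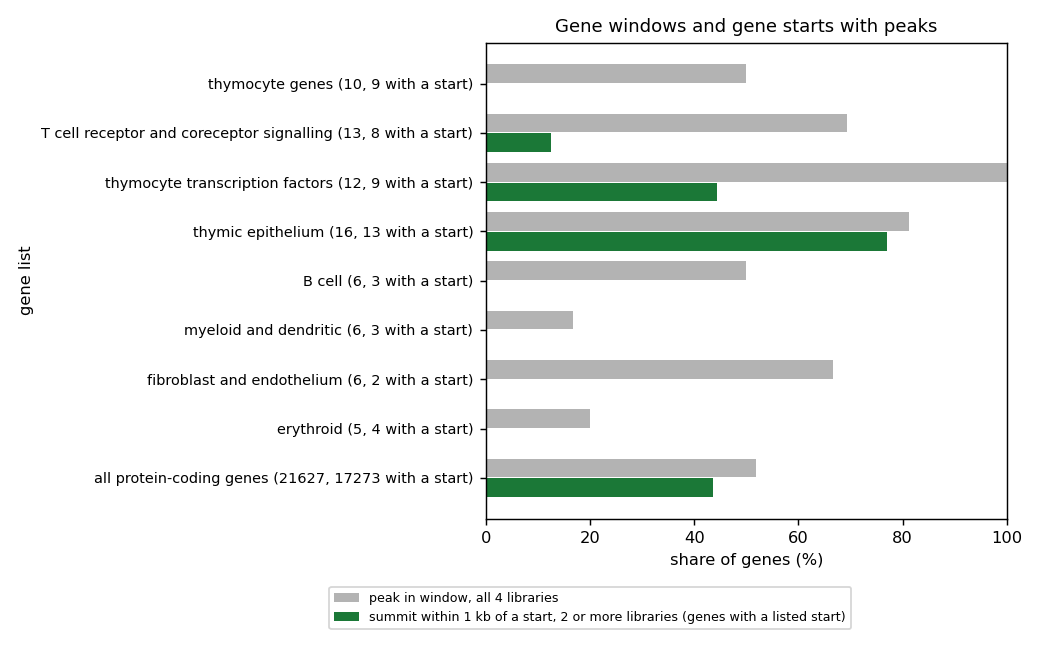
Share of genes (x axis, percent) with a peak in the window in all 4 libraries (grey) and, of genes with a listed start, with a summit within 1 kb of it in 2 or more libraries (green), by gene list (y axis, number of genes in brackets). The thymocyte genes stand at 50% and 0%, thymic epithelium at 81.3% and 76.9%, and all protein-coding genes at 51.9% and 43.7%.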

How the data were processed

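Each of the 4 libraries (mTEChi and mTEClo, 2 each) had 1 deposited peak list, so the authors did not pool replicates. Groups and replicate numbers come from the titles. Nothing in the labels says that replicates came from separate mice, so their spread may be technical. The submitters' processing notes list mm10, MACS2 2.2.7.1, Bowtie2 2.2.9, SAMtools 1.9 and Picard; the sources used here give neither settings nor a control. Each interval is a summit with 150 bp to each side. The score deposited by the authors was read as a −log10 value (of a p-value or a q-value, not stated which) and served only to rank peaks within a list. The 4 commonest scores covered 38.7% to 51.1% of a list.

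Gene intervals and starts came from RefSeq (GRCm38.p6, the mm10 assembly); 9 of 10 thymocyte genes matched a listed start. The genes, lists and tests were chosen with earlier results of these data known. The text names all 10 genes, each region seen in 2 or more libraries and the neighbour nearest to it. Depth is unknown. No test over the gene list was made; shares stand beside all protein-coding genes, and single genes were compared by a two-sided exact permutation test. The calling rules were run on simulated peaks planted close to listed gene starts. Such peaks fall inside the windows by design, so this checks the code only. Alternatives changed the peaks used, the window, the distances and the libraries. Software was scipy 1.17.1, numpy 2.4.6, matplotlib 3.10.9 and pandas 2.3.3 under Python 3.11.15.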

Additional observations from a re-analysis of the deposited data

How the results depend on the processing

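The count of recurring summits at thymocyte gene starts was 0 in its 9 alternatives. Only the distance of 2 kb could have raised it. The others removed peaks or libraries or shortened the distance, so their 0 was fixed in advance. Genes called in all 4 libraries numbered 5, and 3 with peaks above the median score, with 1 kb windows or near gene ends only, 1 with the 10000 highest peaks, 2 without peaks at other genes' starts, and 5 to 7 without single libraries. Genes in both mTEChi libraries (6) fell to 3 with 1 kb windows and 2 with the 10000 highest peaks. Genes in both mTEClo libraries (9) fell to 3 above the median and 1 with the 10000 highest peaks. The mTEChi-only count of 0 became 1 with the 10000 highest peaks, near gene ends only and without peaks at other genes' starts, and was 0 to 1 without single libraries. The mTEClo-only count of 2 became 1 with 10 kb windows, 0 above the median and 0 with the 10000 highest peaks, and 2 to 4 without single libraries. Recurring regions (7) became 1 with 1 kb windows, 3 above the median, 4 with summits within 75 bp, 2 with the 10000 highest peaks, 3 without peaks at other genes' starts, and 4 to 7 without single libraries. The difference of -0.131 peaks per 10000 (mTEChi minus mTEClo) became -0.3155 without peaks at other genes' starts, -0.288 with equal list lengths, -0.392 with 1 kb windows, 0.134 with 10 kb windows, 2 with the 10000 highest peaks, and -0.243 to -0.0186 without single libraries. Fewer peaks or shorter windows leave fewer calls by construction, and 10 kb windows can only raise the number called in all 4 libraries. Without a single library, calls in all libraries and mTEChi-only or mTEClo-only calls were made over the libraries left. Those counts could only stay or rise, so the direction of their shifts was fixed in advance. The causes of the other shifts were not tested. With the replicate block the difference was also -0.131, from -0.236 and -0.0257 within replicates 1 and 2. The shares over all protein-coding genes and all regions were computed for the main rule and without peaks at other genes' starts, not for the other settings. Counts under those other settings have no background beside them and are no result about these genes. Peak lists do not show depth, so an absent peak may lie below detection.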

Other observations

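Other genes of T cell receptor signalling had peaks in all 4 libraries in 9 of 13 cases. Each gene's best rank in a library is taken over all peaks of its window, so that a longer window gives more chances of a high rank. By the worst of these best ranks, Cd247, the gene of the zeta chain of the receptor, led, in a window of 101.2 kb with 4 to 12 peaks a library, with 8.4% and 0.989% in mTEChi and 23.1% and 19.3% in mTEClo. Fyn, a kinase related to Lck with a window of 205.6 kb, had 11.1% and 26.2% in mTEChi and 12.8% and 6.66% in mTEClo. Lat, the adaptor phosphorylated by Zap70, had peaks in mTEClo replicate 1 alone, and Cd8b1, the partner chain of Cd8a, had 0 and 2 peaks in mTEChi and 1 and 2 in mTEClo libraries. Among thymocyte transcription factors, Zbtb7b, which directs cells to the CD4 lineage, had a summit within 1 kb of a start in all 4 libraries, while Tcf7, Satb1, Ets1 and Runx3 had none in any. The B cell gene Ms4a1 and the erythroid genes Hbb-bs and Alas2 had no peak in any library.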
